A study of Mus musculus with 20 samples.

Results

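The 10 astrocyte libraries of a mouse brain injury study fall into 6 libraries of replicates 1 to 3 and 4 libraries of replicates 4 and 5, and the values compared here are those of the one set against the other. The split was chosen by measured values: 4 astrocyte genes, Agt, Gjb6, Lgi1 and Itih3, had been seen to be lower in replicates 4 and 5, so every difference between the sets is given as a description. The 4 libraries of replicates 4 and 5 are 4 of the 10 astrocyte libraries and 4 of the 20 libraries of the series, of which the other 10 are from microglia.

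Adult male C57BL/6J mice, 3 to 4 months old, received a lateral fluid percussion injury (FPI), in which a pulse of fluid strikes the exposed dura, or a sham operation. The cells were sorted 7 days later from the left forebrain, the side of the injury, after perfusion with cold saline buffer and removal of myelin on a Percoll gradient. Astrocytes were sorted by the ACSA-2 antigen, which is encoded by Atp1b2, and microglia as CD11b+ cells with intermediate CD45. Each library came from 1 animal, with no pooling, and was made by a kit that amplifies stranded total RNA from picogram amounts, with 5 sham and 5 FPI libraries for each cell type.

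Astrocytes buffer potassium, glutamate and water around synapses and vessels, are coupled to each other by gap junctions, and supply neurons with lactate, glutamine, cholesterol and secreted proteins. Transcription factors such as SOX9 and the NFI family act early in their formation, and their mature genes differ in level between brain regions. After injury they take on a reactive state in which intermediate filament and acute phase genes rise.

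The labels give no batch, sort date or sequencing run. The library numbers in the sample names run from 61 to 69 in replicates 1 to 3 and from 70 to 75 in replicates 4 and 5 and the labels do not say what these numbers stand for. The number that opens each column name is read here as an animal number, which the labels do not state. The letter M follows it in 6 of the 10 microglia columns. The other 4 microglia columns and 9 astrocyte columns have an A. FPI astrocyte library 2 has the number 1301. FPI astrocyte library 5 has the same number, followed by an M. Its counts were those of an astrocyte library, with the astrocyte genes described here at 54620 CPM (counts of a gene scaled for library size with edgeR's TMM factors) and the 18 genes of a microglial list at 255.9 CPM in sum, against a median of 36730 CPM in the microglia libraries. FPI libraries 2 and 5 were not copies of each other: over 13681 genes the chi-square of their counts was 61.5 per degree of freedom. This does not settle whether both came from animal 1301. If they did, 1 animal would stand in both sets, and n would count libraries and not animals. By these numbers, animals 1317 and 1322 gave sham astrocyte libraries 4 and 5 and also sham microglia libraries 2 and 3. Animal 1304 likewise gave FPI astrocyte library 3 and FPI microglia library 1.

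The deposited values are counts of reads per gene for 39017 identifiers. Total counts ran from 7687392 to 10917112 in replicates 1 to 3 (median 8945688.5) and from 6470553 to 10100987 in replicates 4 and 5 (median 8222091). The share of counts from the mitochondrial chromosome was 12.43% ± 3.05 (SD, n = 6) in replicates 1 to 3 and 13.38% ± 0.818 (SD, n = 4) in replicates 4 and 5. A single noncoding RNA, Gm23935, took 11.6% ± 2.96 of the counts in replicates 1 to 3 and 15.05% ± 4.68 in replicates 4 and 5, with its highest share, 21.7%, in FPI library 5. Protein-coding genes held 70.55% ± 2.22 of the counts in replicates 1 to 3 and 66.1% ± 3.95 in replicates 4 and 5. These shares overlapped between the sets over both injury groups. Within FPI the protein-coding share did not, at 71%, 72.2% and 68.1% in replicates 1 to 3 and 67.5% and 61% in replicates 4 and 5. The mitochondrial share did not overlap within sham, at 12.1%, 10.2% and 12.3% in replicates 1 to 3 and 12.6% and 14.5% in replicates 4 and 5. It overlapped within FPI. Genes with a count numbered 16946, 17714 and 17419 in sham replicates 1 to 3 and 17968 and 18168 in sham replicates 4 and 5, and overlapped within FPI. The part of these shares and numbers in the differences below was not tested. FPI library 1 stood apart from the other FPI libraries in the number of genes with a count, 15043 against 17291 to 18147, and lay at -117.5 on the first principal component of log2 CPM, which held 32.1% of the variance, where the other 9 libraries lay between -47.74 and 62.23.

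Of 15242 genes tested with injury as a covariate, 1155 were called different between the sets, which is 7.58% of those tested. To be called, a gene needed a log2 fold change above 0.6 in size and a Benjamini-Hochberg adjusted p under 0.1 in edgeR's quasi-likelihood test. In replicates 4 and 5, 770 genes (5.05%) were called lower and 385 (2.53%) higher. DESeq2 called 858 lower and 724 higher, and with every gene that had at least 1 count edgeR called 920 lower and 1215 higher. All 4 libraries of replicates 4 and 5 lay below all 6 of replicates 1 to 3 for 780 genes (5.12%), and above them for 448 (2.94%). The total of 1155 calls moved with single libraries: it was 686 without sham library 1, 629 without sham library 4, 413 without sham library 5 and 661 without FPI library 4, and 1578 without FPI library 5. Of the 770 genes called lower, 489 had their lowest value in sham library 4 and 147 in FPI library 5. Of the 385 called higher, 242 had their highest value in FPI library 5 and 71 in sham library 4. In bulk RNA of sorted cells, fewer cells of a type and less RNA per cell cannot be told apart.

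Agt (ENSMUSG00000031980, chr8:124556534-124569706 of GRCm38) encodes angiotensinogen, which astrocytes secrete as the precursor of the angiotensin peptides. Its level in sham astrocytes was 539, 238 and 459 CPM in replicates 1 to 3 and 63.8 and 82.9 CPM in replicates 4 and 5. In FPI astrocytes it was 360, 247 and 260 CPM in replicates 1 to 3 and 73.8 and 80.7 CPM in replicates 4 and 5. Every library of replicates 4 and 5 was below every library of replicates 1 to 3. The mean was 350.4 ± 126 CPM (SD, n = 6) in replicates 1 to 3 and 75.3 ± 8.57 CPM (SD, n = 4) in replicates 4 and 5, 4.65-fold lower, with a fitted log2 fold change of -2.19 (SE 0.26).

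Gjb6 (ENSMUSG00000040055, chr14:57123303-57133611) encodes connexin 30, a gap junction protein that couples astrocytes. It stood at 289, 242 and 259 CPM in sham replicates 1 to 3 and at 65.2 and 92.3 CPM in sham replicates 4 and 5. In FPI it stood at 212, 195 and 152 CPM in replicates 1 to 3 and at 65.5 and 86.4 CPM in replicates 4 and 5. The ranges of the sets were apart in both injury groups, and the log2 fold change was -1.52 (SE 0.19), or 2.91-fold lower by the means.

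Lgi1 (ENSMUSG00000067242, chr19:38264536-38312214) encodes a secreted protein that binds ADAM22 and ADAM23 at synapses. Its sham values were 98.6, 78.7 and 110 CPM in replicates 1 to 3 and 24.3 and 28.4 CPM in replicates 4 and 5. Its FPI values were 67.5, 60.2 and 65 CPM in replicates 1 to 3 and 28 and 20.5 CPM in replicates 4 and 5. No library of 1 set reached the range of the other, and the log2 fold change was -1.63 (SE 0.17).

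Itih3 (ENSMUSG00000006522, chr14:30908572-30923760) encodes a heavy chain that is bound to hyaluronan in the extracellular matrix. It was measured at 378, 249 and 410 CPM in sham replicates 1 to 3 and at 104 and 121 CPM in sham replicates 4 and 5. After FPI it was at 314, 291 and 360 CPM in replicates 1 to 3 and at 91.3 and 91.6 CPM in replicates 4 and 5. Here too the sets did not overlap, with a log2 fold change of -1.71 (SE 0.18). Leaving out each library in turn kept the log2 fold change between -2.29 and -2.05 for Agt, between -1.65 and -1.38 for Gjb6, between -1.78 and -1.53 for Lgi1, and between -1.81 and -1.66 for Itih3. With the libraries scaled to the astrocyte lists, which puts the median of all genes at 0.94, the values were -1.28 for Agt, -0.63 for Gjb6, -0.72 for Lgi1 and -0.81 for Itih3. Fitted within each injury group, the difference was -2.49 in sham and -1.90 in FPI for Agt, and -1.62 in sham and -1.81 in FPI for Itih3.

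**Figure D1:**
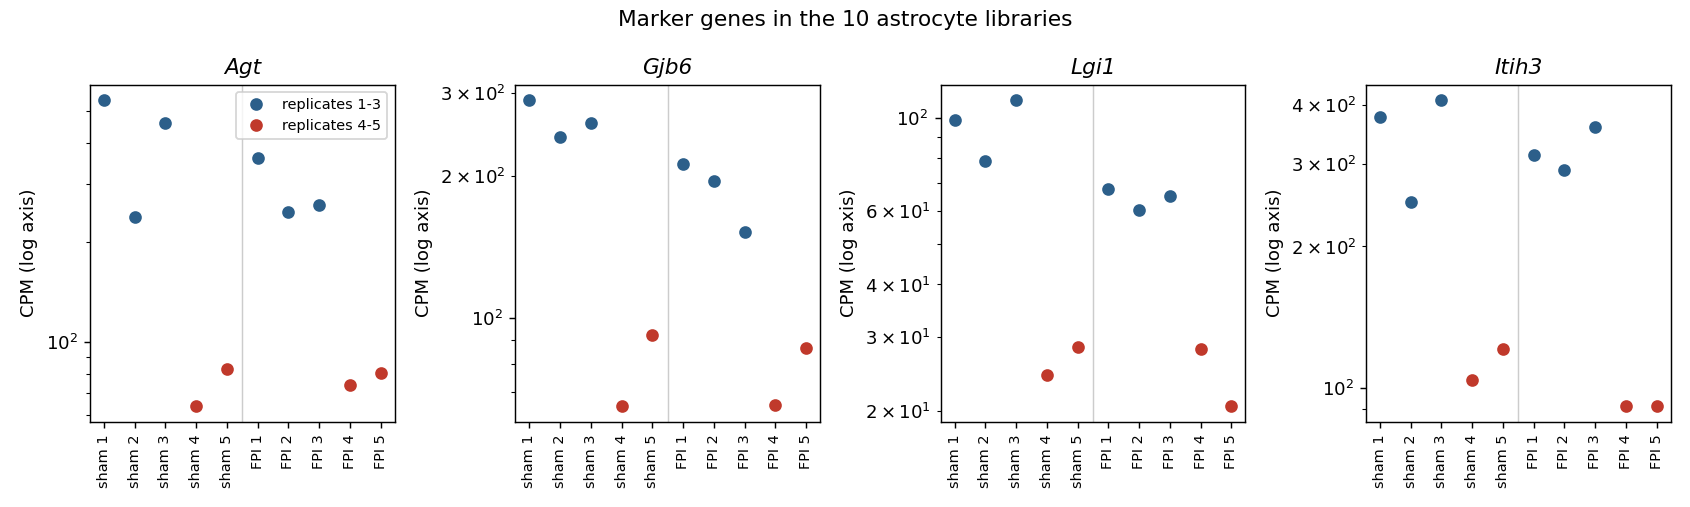
Level of the 4 marker genes in each of the 10 astrocyte libraries, as CPM on a log axis, with 1 point per library. The 4 libraries of replicates 4 and 5 lie below the 6 of replicates 1 to 3 for each gene, for Agt between 63.8 and 82.9 CPM against 238 to 539 CPM.

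Because these 4 genes moved together, their promoters are shown, each 300 bases long, 5′ to 3′, from RefSeq on GRCm38.p6, and all 4 were matched by symbol. The capitals mark TTGGC or its reverse complement GCCAA, the core letters bound by the NFI factors. The windows are chr8:124569657-124569956 on the minus strand for Agt, chr14:57133562-57133861 on the minus strand for Gjb6, chr19:38264437-38264736 on the plus strand for Lgi1, and chr14:30923538-30923837 on the minus strand for Itih3.
Agt: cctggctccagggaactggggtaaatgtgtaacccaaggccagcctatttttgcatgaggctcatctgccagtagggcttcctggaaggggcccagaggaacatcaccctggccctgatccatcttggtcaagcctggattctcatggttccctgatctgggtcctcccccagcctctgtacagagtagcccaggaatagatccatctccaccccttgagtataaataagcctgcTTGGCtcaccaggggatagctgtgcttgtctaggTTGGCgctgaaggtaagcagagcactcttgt
Gjb6: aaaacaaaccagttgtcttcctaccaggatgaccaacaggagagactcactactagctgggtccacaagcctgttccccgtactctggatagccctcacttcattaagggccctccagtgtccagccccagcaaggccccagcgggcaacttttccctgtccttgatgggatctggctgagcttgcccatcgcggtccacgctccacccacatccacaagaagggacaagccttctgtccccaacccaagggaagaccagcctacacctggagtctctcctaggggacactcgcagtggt
Lgi1: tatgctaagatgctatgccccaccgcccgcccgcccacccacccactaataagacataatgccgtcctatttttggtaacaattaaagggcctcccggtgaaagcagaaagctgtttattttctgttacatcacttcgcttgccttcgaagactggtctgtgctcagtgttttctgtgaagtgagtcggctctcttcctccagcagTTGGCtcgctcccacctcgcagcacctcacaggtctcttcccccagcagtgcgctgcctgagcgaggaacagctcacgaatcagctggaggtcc
Itih3: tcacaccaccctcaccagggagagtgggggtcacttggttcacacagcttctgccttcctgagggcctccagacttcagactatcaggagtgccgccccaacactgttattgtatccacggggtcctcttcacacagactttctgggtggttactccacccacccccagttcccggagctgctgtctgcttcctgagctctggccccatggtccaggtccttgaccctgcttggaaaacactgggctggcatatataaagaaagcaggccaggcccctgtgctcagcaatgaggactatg
TTGGC was found on either strand 2 times for Agt, 1 time for Lgi1 and 0 times for Gjb6 and Itih3, while 46.7% of 32851 mouse promoters of this length hold it. The letters ACAAT, a core of SOX motifs searched on both strands, were found 1 time each for Lgi1 and Itih3 and 0 times for Agt and Gjb6, against 31.0% of the promoters. The matches of the 2 motifs do not overlap.

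The astrocyte genes listed by role number 109, and 109 passed the filter on low counts. Replicates 4 and 5 were called lower for 83 of them and higher for 0, and 26 were not called, where 5.05% of all genes tested were called lower. The 83 include Agt, Gjb6, Lgi1 and Itih3, by which the split was chosen. DESeq2 called 85 lower and 1 higher, and with the libraries scaled to these genes themselves edgeR called 6 lower and 10 higher, where 26 of all genes were called lower and 9512 higher. The lists had a median log2 fold change of -0.96 against 0.04 over all genes tested (-0.07 against 0.94 under that scaling). The fold change was below 0 for 105 of the 109. For 77 all 4 libraries of replicates 4 and 5 lay below the 6 of replicates 1 to 3, beside 5.12% of all genes tested. Summed over the 109 genes, the level was 117400, 95880 and 95800 CPM in sham replicates 1 to 3 and 41410 and 56210 CPM in sham replicates 4 and 5. In FPI the sum was 101900, 78370 and 71370 CPM in replicates 1 to 3 and 46310 and 54620 CPM in replicates 4 and 5. The highest sum of replicates 4 and 5 was thus below the lowest of replicates 1 to 3. The means were 93460 ± 16600 CPM (SD, n = 6) and 49640 ± 7000 CPM (SD, n = 4), a ratio of 1.88. The median log2 fold change was -1.21 within sham and -0.75 within FPI, where the medians of all genes tested were 0.022 and 0.00095. With the sham libraries alone edgeR called 74 of the 109 lower, among 642 genes called lower in all, with a list median of -1.21. With the FPI libraries alone it called 0 genes of any kind (981 at an unadjusted p under 0.05), so that the 0 calls there are not particular to these lists, whose median was -0.72. Sham library 4 held the lowest value of 77 of the 109 genes and FPI library 5 that of 20, and sham library 1 held the highest value of 55. With 1 library left out, the number called lower ran from 64 (without sham library 5) to 86 (without FPI library 5), and the median from -1.02 to -0.86.

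Among 10 genes of junctions, channels and pumps, 8 were called lower (5.05% over all genes), with a median of -1.08. Gja1, which encodes connexin 43, fell from 3380, 2780 and 2610 CPM in sham replicates 1 to 3 to 805 and 1060 CPM in sham replicates 4 and 5, and in FPI from 2710, 2100 and 1570 CPM to 967 and 1190 CPM. Its log2 fold change was -1.31. The water channel gene Aqp4 had a log2 fold change of -1.09 and the potassium channel gene Kcnj16 one of -1.30. Atp1b2, the gene of the antigen by which the cells were sorted, stood at 2920, 1880 and 2170 CPM in sham replicates 1 to 3 and at 799 and 1140 CPM in sham replicates 4 and 5. In FPI it stood at 2550, 1600 and 1720 CPM and at 895 and 1210 CPM. It was called lower at -1.08, with the sets apart. The potassium channel gene Kcnj10, at -0.52, was among the genes not called.

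Among 16 genes of transporters and transmitter signalling, 12 were called lower (5.05% over all genes), with a median of -0.98. Slc6a11, which encodes the GABA transporter GAT-3, had the lowest fold change of this list, -1.77, from 1360 ± 460 CPM (SD, n = 6) to 391.7 ± 55.9 CPM (SD, n = 4). The glutamate transporter genes Slc1a2 and Slc1a3 had log2 fold changes of -0.87 and -1.05. The glutamate receptor genes Grm3 and Grm5, the glycine transporter gene Slc6a9 and the adenosine receptor gene Adora1 were not called.

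Of 24 genes of secreted proteins, 17 were called lower (5.05% over all genes), with a median of -0.94. Besides Agt, Lgi1 and Itih3 they included F3, which encodes tissue factor, at -1.48, Pla2g7, a lipoprotein-associated phospholipase, at -1.19, and Apoe at -0.75. Sparc, Gpc4, Gpc6, Il33 and Thbs4 lay between -0.11 and 0.05 and were not called. The list also holds Mfge8 and Il18, which were not called at -0.74 and -0.46.

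Of 24 genes of metabolism, 21 were called lower (5.05% over all genes), with a median of -0.93. Etnppl, which encodes the lyase that breaks down phosphoethanolamine, stood at 96.4, 66.1 and 222 CPM in sham replicates 1 to 3 and at 17.7 and 25.7 CPM in sham replicates 4 and 5, with a log2 fold change of -2.07. Aldh1l1, a folate enzyme gene widely used to mark astrocytes, changed by -0.86, from 329.5 ± 61 CPM (SD, n = 6) to 179.2 ± 24 CPM (SD, n = 4). The metallothionein genes Mt1, Mt2 and Mt3 changed by -1.09, -1.20 and -0.86. The 3 genes of this list not called were Ppp1r3c, Fabp7 and Aldh6a1.

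Of 20 genes of receptors and other surface proteins, 16 were called lower (5.05% over all genes), with a median of -1.03. The endothelin receptor gene Ednrb was at -1.47, the lowest of them, the growth factor receptor gene Fgfr3 at -1.09 and the sphingosine phosphate receptor gene S1pr1 at -1.30. Cd9, a tetraspanin gene that oligodendrocytes also express, and Fgfr2 had fold changes above 0, at 0.58 and 0.25, and were not called. Gprc5b and Megf10 were not called either.

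Of 15 transcription factor genes, 9 were called lower (5.05% over all genes), with a median of -0.88. Sox9 stood at 652, 667 and 648 CPM in sham replicates 1 to 3 and at 165 and 269 CPM in sham replicates 4 and 5, and its log2 fold change was -1.13. Rorb had the lowest value of the list, -1.28, and Hes5 and Rfx4 were both at -1.16. The factor genes Nfia, Nfib and Nfix, at -0.38, -0.57 and -0.11, were not called, nor were Id3, Zbtb20 and Zfp36l1.

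**Figure D2:**
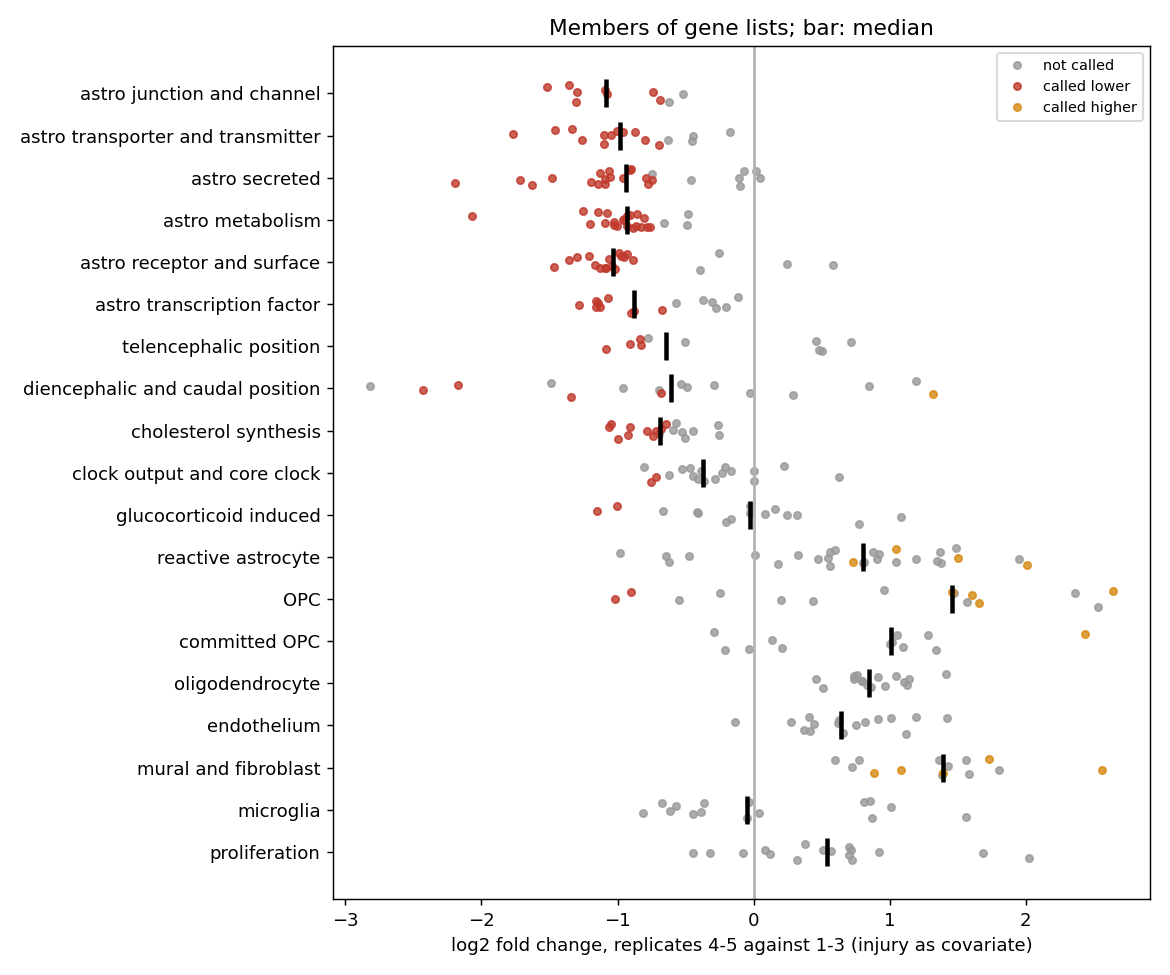
Log2 fold change of each tested member of 19 gene lists between replicates 4 and 5 and replicates 1 to 3 with injury as a covariate, with 1 point per gene and a bar at the list median. The 6 astrocyte lists have medians between -1.08 and -0.88 and no gene called higher, and the mural and fibroblast list has all 14 genes above 0, with the libraries scaled by TMM.

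Genes of regional position were read because the levels of astrocyte genes differ between brain regions. Of 10 telencephalic genes, 4 were called lower, Nr2e1, Lhx2 and Emx2 among them, and 0 higher, beside 5.05% of all genes called lower. The fold change was below 0 for 6 and above 0 for 4 (Emx1, Dmrt3, Lef1 and Eomes, up to 0.72 for Dmrt3), with a median of -0.64 (0.25 when the libraries were scaled to the astrocyte genes, where all genes were at 0.94). Lhx2, a homeobox gene of the forebrain, stood at 151, 148 and 99.1 CPM in sham replicates 1 to 3 and at 40.5 and 62.8 CPM in sham replicates 4 and 5, and in FPI at 89.4, 96.9 and 78.7 CPM and at 49.2 and 77.7 CPM. Of 24 genes of the diencephalon and more caudal regions 16 were tested, of which Irx1, Irx2, Irx5 and Tcf7l2 were called lower (5.05% over all genes) and Zic1 higher, with a median of -0.61 (0.27 under that other scaling, again beside 0.94 for all genes). That median was -0.35 without sham library 4, -0.39 without FPI library 1 and -0.41 without sham library 2. It was -0.14 when each library had to hold at least 10 counts of a gene. When every gene with at least 1 count was tested, 3 genes of this list were called higher, among 1215 of all genes. Hoxa5 and Hoxb5 had 0 counts in the 10 libraries. Irx1 stood at 8.46, 6.55 and 24.3 CPM in sham replicates 1 to 3 and at 0.809 and 3.63 CPM in sham replicates 4 and 5. Zic1, a zinc finger gene of dorsal midline and meningeal cells among others, ran from 25.5 to 76.6 CPM in replicates 1 to 3 and from 76.4 to 197 CPM in replicates 4 and 5, at a log2 fold change of 1.32. The number of telencephalic genes called was 1 without FPI library 4 and 2 without sham library 1, 4 or 5, and that of caudal genes called lower was 1 without sham library 3 or 4 and 2 without sham library 1, sham library 5, FPI library 4 or FPI library 5. Without sham library 5, Zic1 was not called. Whether the tissue taken differed between the sets was not tested.

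By a rule on size, 12 genes are named in each direction: the largest fold changes among genes past the adjusted p of 0.1 with a mean of at least 5 CPM whose sets did not overlap within sham or within FPI, for which 724 genes were eligible in the lower direction and 282 in the higher. Among the 12 with the largest decrease were 3 of the astrocyte lists, Agt, Etnppl and Slc6a11, and the position gene Irx1. Sfrp5, which encodes a secreted antagonist of Wnt proteins, had the lowest fold change, -2.44, from 46.59 ± 14.6 CPM (SD, n = 6) to 8.579 ± 2.24 CPM (SD, n = 4). Igsf1, a membrane glycoprotein gene of the immunoglobulin family, was at -2.22, from 44.2 ± 15.8 to 9.44 ± 1.95 CPM. Cd38, whose enzyme consumes NAD, went from 39.03 ± 16.1 to 10.28 ± 0.58 CPM at -1.88. The other named genes were Lnx1, a ubiquitin ligase gene, at -1.96, Shisa9, whose protein binds AMPA receptors, at -1.87, and the potassium channel gene Kcnd2 at -1.85. The histamine receptor gene Hrh1 was at -1.76 and the nucleoside transporter gene Slc29a2 at -1.74. Sham library 4 held the lowest value for 8 of these 12 genes, FPI library 4 for 2 and FPI library 5 for 2.

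In the higher direction, Acta2, which encodes the actin of smooth muscle, stood at 1.17, 6.22 and 8.71 CPM in sham replicates 1 to 3 and at 20.2 and 39.6 CPM in sham replicates 4 and 5. In FPI it stood at 1.89, 10.3 and 10.9 CPM and at 28.3 and 68.9 CPM. The sets did not overlap, and the log2 fold change was 2.56 (SE 0.50). Sspo, which encodes the secreted glycoprotein SCO-spondin, rose from 8.531 ± 4.68 CPM (SD, n = 6) to 39.57 ± 8.29 CPM (SD, n = 4), at 2.26. Col15a1, a collagen gene of vessel basement membranes, was at 2.07, from 5.6 ± 2.25 to 23.7 ± 8.3 CPM. The connexin 37 gene Gja4, known from arterial endothelium, was at 1.85, and the phosphodiesterase gene Pde3a at 1.94. The named genes also included the glycosyltransferase gene A4galt at 2.15, the iodide symporter gene Slc5a5 at 2.07, the metalloreductase gene Steap4 at 2.01, the kinase genes Frk and Nuak2 at 1.96 and 1.94, the flippase gene Atp8b1 at 1.90 and the receptor gene Ror1 at 1.86. FPI library 5 held the highest value for 9 of these 12 genes and FPI library 1 the lowest for 7. Without FPI library 5 the fold change was 2.24 for Acta2, 1.55 for Gja4 and 2.33 for Atp8b1.

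Of 14 genes of mural cells and fibroblasts, the cells that wrap vessels and form their sheath, 5 were called higher in replicates 4 and 5 (Acta2, Higd1b, Col3a1, Pdgfrb and Col1a2) and 0 lower, beside 2.53% of all genes tested called higher. With every gene that had at least 1 count, edgeR called 12 of the 14 higher, where it called 1215 of all genes higher in place of 385. All 14 had fold changes above 0, with a median of 1.39. For 6 the sets did not overlap, where 2.94% of all genes tested had replicates 4 and 5 wholly above. The summed level was 1136, 2931 and 2104 CPM in sham replicates 1 to 3 and 3175 and 6014 CPM in sham replicates 4 and 5. In FPI the sum was 416.7, 2759 and 2934 CPM in replicates 1 to 3 and 4610 and 8531 CPM in replicates 4 and 5. The 4 sums of replicates 4 and 5 were above the 6 of replicates 1 to 3, with FPI library 5 highest and FPI library 1 lowest, and the means were 2047 ± 1060 CPM (SD, n = 6) in replicates 1 to 3 and 5582 ± 2280 CPM (SD, n = 4) in replicates 4 and 5. Vtn had the highest CPM of the list, at 434, 1150 and 899 CPM in sham replicates 1 to 3 and 1380 and 2540 CPM in sham replicates 4 and 5, and none of the 14 was at 0 in all libraries. The number called was 1 without sham library 5, 2 without sham library 1, sham library 3 or FPI library 5, 3 without FPI library 2 or 4 and 9 without FPI library 1, and the median stayed between 1.13 and 1.57. The part of such cells in the lower astrocyte levels was not tested.

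Of 16 endothelial genes, 0 were called in either direction by edgeR (7.58% over all genes), and 15 had fold changes above 0, with a median of 0.64. The summed level was 324.9, 965.3 and 437.5 CPM in sham replicates 1 to 3 and 610.7 and 1082 CPM in sham replicates 4 and 5, and in FPI 364.1, 626.5 and 922.9 CPM and 594.7 and 932.7 CPM. These sums overlapped between the sets. The glucose transporter gene Slc2a1 had the highest CPM of the list, and Slc2a1 alone was below 0, at -0.14. Without FPI library 1, 1 endothelial gene was called higher, among 490 of all genes. When every gene with at least 1 count was tested by edgeR, 7 endothelial genes were called higher, among 1215 of all genes. The median ran from 0.36 without sham library 1 to 1.07 without sham library 2.

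Of 15 tested genes of oligodendrocyte precursor cells (OPC), 4 were called higher (Tnr, Cspg4, Pdgfra and Matn4) and 2 lower (Ptprz1 and Xylt1), with a median of 1.46. The median was 1.35 within sham and 0.31 within FPI, and 0.34 when each library had to hold at least 10 counts of a gene. The number called higher was 6 by DESeq2, among 724 of all genes. It was 8, among 1215, when every gene with at least 1 count was tested. With its default filter edgeR called 2.53% of all genes tested higher and 5.05% lower. Pdgfra, the growth factor receptor gene that marks these cells, stood at 4.69, 10.3 and 8.61 CPM in sham replicates 1 to 3 and at 20.4 and 24.8 CPM in sham replicates 4 and 5, and in FPI at 16.2, 20.8 and 20.3 CPM and at 36.2 and 96.7 CPM. Its sets were apart within each injury group. Cspg4, which pericytes also express, stood at 106, 232 and 182 CPM in sham replicates 1 to 3 and at 320 and 562 CPM in sham replicates 4 and 5, and in FPI at 27.1, 238 and 272 CPM and at 503 and 791 CPM. Ptprz1, which astrocytes also express, had the highest CPM of the list and a log2 fold change of -1.02. The summed level of the list overlapped between the sets, at 2523, 1954 and 2155 CPM in sham replicates 1 to 3, 1771 and 1826 CPM in sham replicates 4 and 5, 2886, 1998 and 1752 CPM in FPI replicates 1 to 3, and 1913 and 2361 CPM in FPI replicates 4 and 5. Without FPI library 5 the median was 0.63, with 2 genes called higher and 4 lower. The number called higher was 1 without sham library 1, 3 or 5 and 2 without FPI library 2.

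Of 12 genes of precursors committed to the oligodendrocyte fate, Gpr17 alone was called higher and 0 lower, with a median of 1.01, and over all genes tested 2.53% were called higher and 5.05% lower. The list median was 0.52 within sham and 0.38 within FPI. Gpr17, an orphan receptor gene of that stage, stood at 201 CPM in FPI library 5 and between 0.588 and 20.1 CPM in the other 9 libraries. Of 16 oligodendrocyte genes, 0 were called in either direction (7.58% over all genes), and 16 had fold changes above 0, but edgeR called 14 of them higher when every gene with at least 1 count was tested and 3 with the sham libraries alone. They had a median of 0.85, of 1.74 within sham and of -0.13 within FPI. The summed level of the 16 genes was 9099, 3819 and 2018 CPM in sham replicates 1 to 3 and 21600 and 9451 CPM in sham replicates 4 and 5. In FPI it was 11100, 12040 and 7133 CPM in replicates 1 to 3 and 13340 and 3861 CPM in replicates 4 and 5. Sham library 4 held the highest and sham library 3 the lowest value of all 16 genes, and FPI library 5 was below the other FPI libraries in the sum. Without FPI library 5 the median was 1.30, with 8 of the 16 called higher, while it was 0.42 without sham library 4 and 0.58 without sham library 3, with 0 called in both. The part of myelin or oligodendrocytes left after the gradient was not tested.

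**Figure D3:**
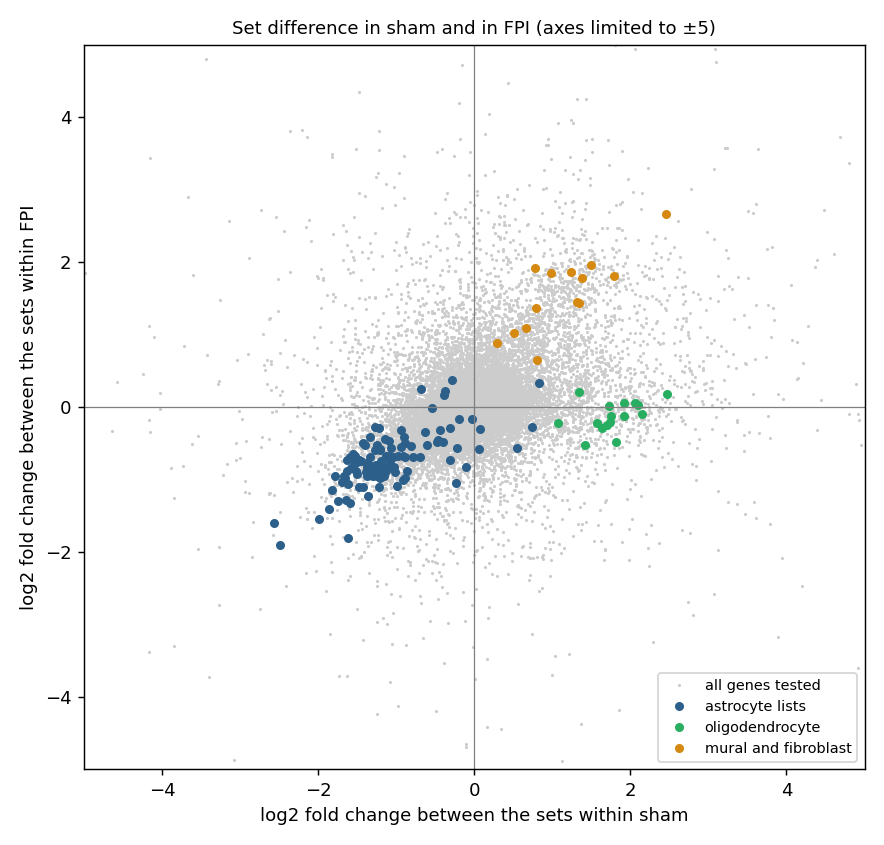
Log2 fold change between the sets within sham (x) and within FPI (y) for all genes tested, 1 point per gene, with 3 groups of lists in color. The medians of the astrocyte genes are -1.21 and -0.75, those of the mural and fibroblast genes 1.11 and 1.62, and those of the oligodendrocyte genes 1.74 and -0.13.

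Of 15 tested microglial genes out of 18, 0 were called (7.58% over all genes), with a median of -0.05 that lay between -0.81 and 0.34 with 1 library left out, 9 below 0 and 6 above. Their summed level was 69.01, 46.13 and 38.27 CPM in sham replicates 1 to 3, 37.32 and 34.55 CPM in sham replicates 4 and 5, 184.1, 202.4 and 56.33 CPM in FPI replicates 1 to 3, and 80.32 and 255.9 CPM in FPI replicates 4 and 5. None of the 18 was at 0 in all 10 libraries. In sham the sums of replicates 4 and 5 were below those of replicates 1 to 3, and in FPI they overlapped. Of 10 genes of border macrophages only Mrc1 was tested, at 1.36 and not called, and Pf4 and Cd209f had 0 counts. Of 12 blood cell genes 5 were tested, all of red cells, of which Alas2 was called higher, beside 2.53% of all genes. All 5 were above 0, with a median of 2.46, and 3 of them had a mean above 1 CPM. A gene of such low counts can pass the filter through the libraries where it is high. The size of this median is therefore not compared with that of other lists. The blood list summed to 8.985, 1.68 and 2.385 CPM in sham replicates 1 to 3 and 4.248 and 34.8 CPM in sham replicates 4 and 5, and in FPI to 0, 11.7 and 6.448 CPM and to 15.67 and 36.37 CPM, so that the sets overlapped in sham and not in FPI. The means were 5.2 ± 4.59 CPM (SD, n = 6) and 22.77 ± 15.5 CPM (SD, n = 4), and Cd79a, S100a9, Ly6g, Nkg7 and Camp were at 0 in all 10. Hba-a1, of hemoglobin, had the highest CPM of it.

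For neurons, 13 of 16 genes were tested, of which Thy1 was called lower and 0 higher, beside 5.05% and 2.53% of all genes tested, with a median of 0.06 and sums from 60.03 to 163.2 CPM. Of 16 neuroblast genes 12 were tested and 0 called, with a median of 0.32 and a sum of 287.6 CPM in FPI library 5 against 99.73 to 178.8 CPM in the others. Of 16 proliferation genes 0 were called, with a median of 0.54 and 8 of the 16 highest in FPI library 5. Of 12 neural stem cell genes Sox1 and Egfr were called lower (5.05% over all genes) and 0 higher, with a median of -0.14. Of 12 ependymal genes 11 were tested and 0 called, with a median of 0.13, and of 10 choroid plexus genes 9 were tested and 0 called, with a median of -0.09. In all, 110 of the 770 genes called lower belong to one of the lists, 83 of them to the astrocyte lists, and 18 of the 385 called higher do.

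Of 28 tested genes of the reactive state, 4 were called higher in replicates 4 and 5 (Steap4, Serping1, Serpina3n and Ggta1) and 0 lower, where 2.53% of all genes tested were called higher. DESeq2 called 9 higher, among 724 of all genes. When every gene with at least 1 count was tested, edgeR called 10 higher and 1 lower, among 1215 and 920 of all genes. The list had a median of 0.81, or 0.61 without FPI library 5. Serping1, which encodes the inhibitor of complement C1, stood at 3.26, 5.71 and 6.22 CPM in sham replicates 1 to 3 and at 10.6 and 18.3 CPM in sham replicates 4 and 5, and in FPI at 4.41, 17.1 and 14.8 CPM and at 25.2 and 43.7 CPM. Without sham library 5 only 1 gene was called higher, with a median of 0.53, and without sham library 2 the number was 6. Without FPI library 1 or 5, 1 gene was called lower. FPI library 5 held the highest value of 19 of the 28 genes and sham library 1 the lowest of 14. Gfap, the filament gene of reactive astrocytes, was not called, at 0.56, with 145, 178 and 147 CPM in sham replicates 1 to 3 and 202 and 404 CPM in sham replicates 4 and 5. In FPI it was at 731, 842 and 863 CPM and at 512 and 1280 CPM, so that the sets overlapped.

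Of 18 genes of cholesterol synthesis, 10 were called lower in replicates 4 and 5 and 0 higher, where 5.05% of all genes tested were called lower and 2.53% higher. All 18 were below 0, with a median of -0.69 (0.26 when the libraries were scaled to the astrocyte genes, where all genes were at 0.94). The summed level of the 18 genes was 3212, 2525 and 3274 CPM in sham replicates 1 to 3 and 1740 and 1817 CPM in sham replicates 4 and 5, and in FPI 2596, 1939 and 1675 CPM and 1409 and 1239 CPM. Within each injury group the sums of the sets did not overlap. The number called was 3 without sham library 5 and 6 without sham library 1, and 7 to 13 with any other library left out.

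Of 21 immediate early and heat shock genes, which respond to handling of live cells among other stimuli, the chaperone genes Hspa1a and Hspa1b were called higher and 0 lower, beside 2.53% and 5.05% of all genes tested, with a median of 0.46, which was 0.26 without FPI library 5, 0.86 without sham library 2 and 0.74 without FPI library 3. The number called was 3 by DESeq2, 1 without sham library 4, sham library 5 or FPI library 5 and 3 without FPI library 3. It was 5 when every gene with at least 1 count was tested, where 1215 of all genes were called higher. Hspa1a stood between 4.3 and 10.6 CPM in replicates 1 to 3 and between 12.7 and 20.6 CPM in replicates 4 and 5. The sums of the list overlapped, from 335.8 to 584 CPM in replicates 1 to 3 and from 465.4 to 805.9 CPM in replicates 4 and 5, and the time from death to lysis was not recorded in the labels. Of 18 clock genes Npas2 and Bhlhe40 were called lower (5.05% over all genes) and 0 higher, with a median of -0.37. Of 15 genes induced by glucocorticoids Angptl4 and Pdk4 were called lower (5.05% over all genes) and 0 higher, with a median of -0.03. Of 18 interferon response genes 0 were called, with a median of 0.26 and 14 of the 18 highest in FPI library 5.

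**Figure D4:**
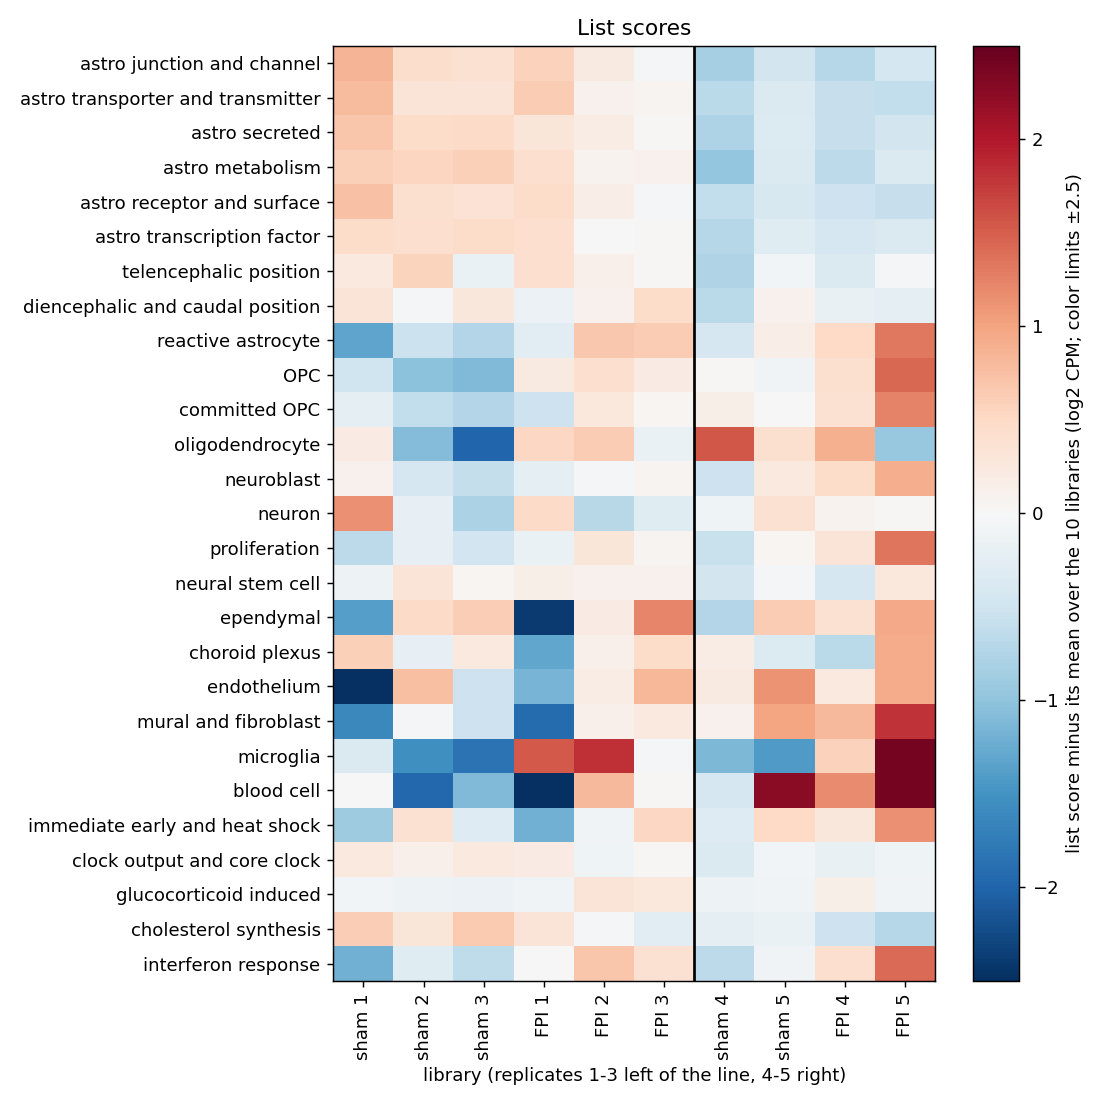
Score of 27 gene lists (mean log2 CPM of their genes) in each astrocyte library, minus the mean of the list over the 10 libraries, as color limited to 2.5 in either direction. The 6 astrocyte lists are lower in each of the 4 libraries on the right, while FPI library 5 and FPI library 1 stand out in the mural and fibroblast list, whose sums are 8531 and 416.7 CPM.

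Whether scores of other lists varied with the astrocyte score was also read within replicates 1 to 3, whose 6 libraries the split keeps together. Each score averages log2 CPM over the genes of a list whose mean is above 1 CPM. With the 109 astrocyte genes 21 lists were compared by two-sided exact permutation tests. The smallest possible p is 0.00278 for Spearman's rho and can be lower for Pearson's r. None of the 21 passed an adjusted p of 0.1, and 4 had an unadjusted p under 0.05. With injury left in, Pearson's r was largest in size for the reactive list, at -0.971 (exact permutation p 0.0139, Benjamini-Hochberg adjusted 0.156) and Spearman's rho of -0.771 (exact permutation p 0.103), and r was -0.904 without the 2 libraries farthest from the median. For cholesterol synthesis r was 0.921 (exact permutation p 0.0181, adjusted 0.156) and rho 0.829 (exact permutation p 0.0583), and r was 0.515 without those 2 libraries, so that it rests on them. The mural and fibroblast list had r of -0.753 (exact permutation p 0.0931, adjusted 0.244), rho of -0.943 (exact permutation p 0.0167) and r of -0.473 without those 2 libraries. For the oligodendrocyte list r was -0.191 (exact permutation p 0.746, adjusted 0.783) and rho 0.0286 (exact permutation p 1.0), with r of 0.462 without those 2. With the injury means taken out, r was -0.997 for the ependymal list, -0.979 for the mural and fibroblast list, -0.963 for the reactive list and -0.946 for the immediate early list. A permutation over all 6 libraries then passed 3 of the 21 lists, the ependymal, mural and immediate early ones (each adjusted to 0.0292). That permutation mixes the residuals of sham and FPI libraries. Shuffled only within sham and within FPI there are 36 exact permutations with a smallest possible p of 0.0278, at which a list could pass only if at least 6 of the 21 stood there. This shuffle thus does not test the 3 lists. The mural, immediate early and endothelial lists stood there (exact permutation p 0.0278, adjusted 0.194), and the ependymal list had an exact permutation p of 0.0556. For the endothelial list, injury left in, r was -0.789 (exact permutation p 0.0625, adjusted 0.192) and rho -0.943 (exact permutation p 0.0167), with r of -0.848 without 2 libraries.

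The comparison of FPI with sham is balanced over the sets, and asks what injury changed in astrocytes. With the set as a term in edgeR's quasi-likelihood test and Benjamini-Hochberg adjustment, 7 of 15242 genes (0.0459%) were called, all higher after FPI, and 549 had an unadjusted p under 0.05. A block by replicate number in place of that term gave 17 calls, 6 of them among the 7, and Mpeg1 was the gene not called there, at 4.00 (edgeR adjusted p 0.169). Without that term 1 gene (0.00656%), Ctss, was called, and 399 had an unadjusted p under 0.05. Both fits use the same libraries. The biological coefficient of variation was 0.379 with the term and 0.424 without it.

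Serpina3n, which encodes a secreted protease inhibitor, stood at 19.3, 9.07, 11.9, 33 and 37.2 CPM in sham replicates 1 to 5 and at 82.8, 119, 69.2, 95.4 and 199 CPM in FPI replicates 1 to 5. Its log2 fold change after FPI was 2.48 (SE 0.28) with an adjusted p of 0.00712 by edgeR, and its 5 FPI values were above its 5 sham values. C4b, a complement gene, stood at 85.4, 101, 101, 161 and 144 CPM in sham and at 195, 302, 296, 371 and 387 CPM in FPI, at 1.40 (SE 0.16, edgeR adjusted p 0.00712). Its sham and FPI values did not overlap. Gfap was at 2.05 (SE 0.29, edgeR adjusted p 0.0337), and the interferon-induced gene Oasl2, at 5.73 to 11.5 CPM in sham and 18 to 48.3 CPM in FPI, at 1.74 (SE 0.25, edgeR adjusted p 0.0361). Neu4, a sialidase gene of the OPC list, had 1 count in the 5 sham libraries and 232 counts in the 5 FPI libraries, a ratio of 269 with a 95% exact counting interval from 47.8 to 10700 (edgeR adjusted p 0.0337). Intervals of this kind cover counting error only. FPI library 5 held 23.5 CPM of Neu4 and the other FPI libraries at most 4.51 CPM. Without FPI library 5 the log2 fold change of Neu4 was 6.19 in place of 7.47 and it was not called (edgeR adjusted p 0.261).

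Ctss, which encodes the lysosomal protease cathepsin S, stood at 0.521, 0.42, 0.622, 1.82 and 2.38 CPM in sham and at 37.1, 29.7, 6.45, 17.5 and 40.2 CPM in FPI, with a log2 fold change of 4.68 (SE 0.54, edgeR adjusted p 0.00712). Mpeg1, a perforin-like gene of macrophages, was at 4.32 (SE 0.67, edgeR adjusted p 0.0569), from at most 1.11 CPM in sham to between 2.31 and 23.5 CPM in FPI. Ctss is on the microglial list, of whose 15 tested genes it alone was called for injury, with a list median of 3.47 against 0.0030 over all genes tested. Genes near 0 in sham can pass the filter through the FPI libraries, so this list median can be too high. The summed microglial levels given above were highest in FPI libraries 5, 2 and 1, and the part of microglial RNA in these values was not tested. Over all genes tested 0.0459% were called for injury. Of the 28 reactive genes 3 were, with a median of 1.14, of 18 interferon response genes 1, with a median of 1.21, and of 15 OPC genes 1, with a median of 0.90. Of the 109 astrocyte genes 0 were called for injury, with a median of -0.19.

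The injury calls depended on single libraries. Serpina3n, C4b and Ctss were called in each of the 10 fits that left out 1 library, and they were the only calls of the 7 without sham library 1, 2, 3 or 4 or without FPI library 2 or 5, where the count was 3. Without sham library 5 the count was 4, with Gfap as the other call. Without FPI library 1 the count was 7 and Mpeg1 was not among the calls of the edgeR test with its adjusted p, and without FPI library 4 the count was 16. An injury effect that differed between the sets was called for 0 of 15242 genes (0%) by edgeR and 0 by DESeq2, and 767 genes had an unadjusted p under 0.05. The lowest p of that test belonged to Kxd1, a lysosome positioning gene, at 21.2, 17.9, 21.7, 9.91 and 9.89 CPM in sham and 9.65, 10.7, 11.2, 17.5 and 17.9 CPM in FPI, with an adjusted p of 0.894 by edgeR. Next came Ppp1r3g, Grm7, Fbn2 and Xaf1, with adjusted p of 0.894 by edgeR as well. When every gene with at least 1 count was tested, edgeR called 358 genes, 341 lower and 17 higher, and these 5 genes were among them, with adjusted p of 0.0622 for Kxd1, 0.00445 for Ppp1r3g, 0.00133 for Grm7, 2.88e-05 for Fbn2 and 0.0355 for Xaf1.

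**Figure D5:**
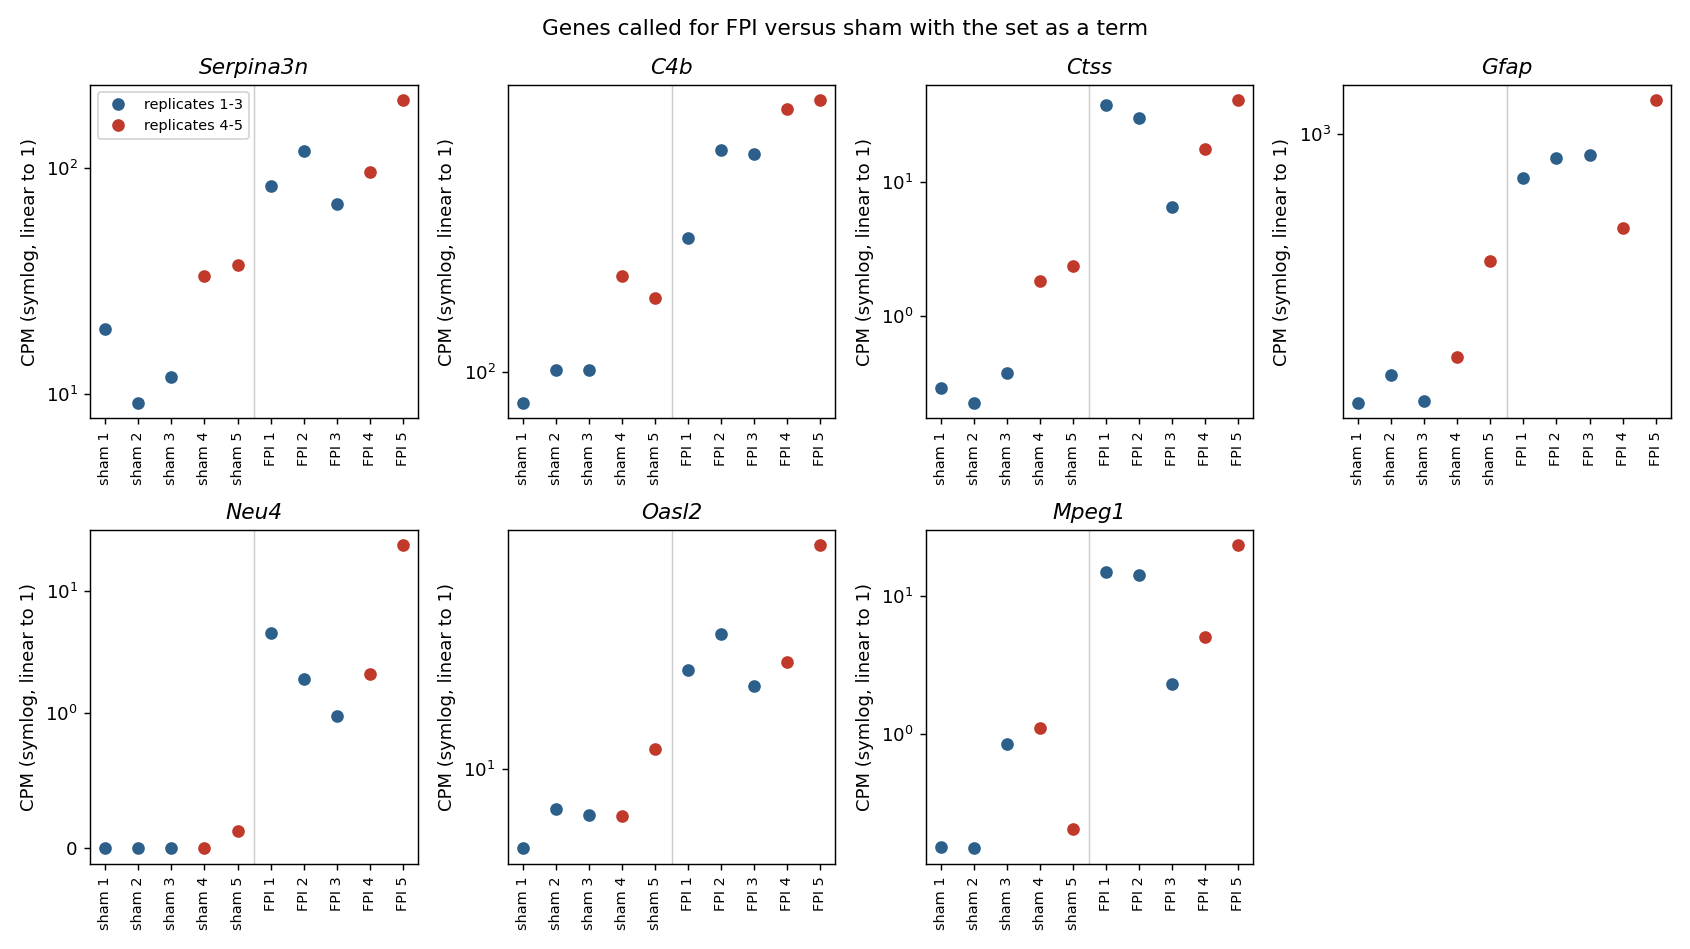
Level of the 7 genes called for FPI against sham with the set as a term, as CPM on a symmetric log axis that is linear up to 1 CPM, with 1 point per library and the sets in color. Values for Serpina3n run from 9.07 to 37.2 CPM in sham and from 69.2 to 199 CPM in FPI.

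By the numbers in the column names, the microglia of animals 1317 and 1322 are other cells of the mice of sham astrocyte libraries 4 and 5. The animals of sham astrocyte libraries 1 to 3, numbered 1291, 1308 and 1312, have no microglia library. The fit sets these 2 animals against other animals, so it does not repeat the sham contrast in the same mice. With injury and the series of the animal numbers as terms, 0 of 13851 genes (0%) were called between the microglia of these 2 animals and the other microglia libraries by edgeR, 340 had an unadjusted p under 0.05, and DESeq2 called 13, all lower. Sham microglia library 1 is the only other sham library of the same number series. The contrast therefore rests on that library and on the effects of injury and series being additive. Leaving out sham microglia library 1 gave 4 calls by edgeR, with 1101 genes at an unadjusted p under 0.05, and leaving out any other library gave 0 calls. Of the 770 genes called lower in astrocyte replicates 4 and 5, 604 were tested in microglia, where 0 were called and 23 had an unadjusted p under 0.05, with a median log2 fold change of -0.08 against -0.01 over all genes tested. Of the 385 called higher, 301 were tested, with 0 called, 6 at an unadjusted p under 0.05 and a median of -0.02. Of the astrocyte lists, 99 genes were tested in microglia, with 0 called, 8 at an unadjusted p under 0.05 and a median of -0.30. The gene with the lowest p in microglia was Clec7a, a receptor gene for fungal glucans, at 13.36 and 20.7 CPM in the 2 libraries and 34.01, 36.78 and 41.94 CPM in the other sham libraries (log2 fold change -1.28, SE 0.28, edgeR adjusted p 1).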

How the data were processed

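The values used are the deposited counts of reads per gene, 1 column per library, which the authors made from reads demultiplexed with bcl2fastq and aligned to mm10 (GRCm38.p6) with HISAT2 2.1.0; featureCounts is named among their tools. The astrocyte libraries were fitted in edgeR 4.0.16 (R 4.3.3) with its default filter over the 4 groups of injury by set, TMM factors and the quasi-likelihood test, with p-values adjusted over all genes tested by the Benjamini-Hochberg method. DESeq2 1.42.0 was an alternative. The members, lists and rules were chosen with earlier results of these data known. The genes named by size were the 12 largest fold changes in each direction among genes past the adjusted p of 0.1 with a mean of at least 5 CPM and sets that did not overlap within sham or within FPI; for injury all called genes were named, and for the interaction and the microglia the 5 lowest p. Other genes were named as list members after their values were seen. Scores and log2 CPM used a prior count of 2. Exact permutation tests were run in Python 3.11.15 with scipy 1.17.1. No library was left out.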

Additional observations from a re-analysis of the deposited data

Results flagged for a closer look

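Within the 5 sham and the 5 FPI libraries, 146 groups of values were screened for a single library far from the others by Dixon's criterion, and 13 were found, where chance gives about 1 in 20. That rate does not hold for genes named by their values in these libraries, such as Atp8b1, Neu4, Oasl2, Grm7 and Fbn2. Of the 13, 5 were in FPI library 5, 3 in FPI library 4, 3 in sham library 5 and 2 in FPI library 1. FPI library 5 was highest for Neu4 at 23.5 CPM, for Oasl2 at 48.3 CPM, for the summed committed OPC list at 1156 CPM and for the summed neuroblast list at 287.6 CPM, and lowest for the summed glucocorticoid list at 336.7 CPM. FPI library 4 was highest for Atp8b1 at 40.5 CPM, for the glutamate receptor gene Grm7 at 89.6 CPM and for the fibrillin gene Fbn2 at 24.4 CPM. Sham library 5 was highest for Gfap at 404 CPM, for Neu4 at 0.125 CPM, which is a single count, and for the summed blood cell list at 34.8 CPM. FPI library 1 was highest for the summed neuron list at 148.8 CPM and lowest in genes detected, at 15043.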

How the results depend on the processing

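The count of 1155 genes called between the sets was 1582 by DESeq2, 1091 with RLE factors, 1206 when each library had to hold at least 10 counts of a gene and 2135 for every gene with at least 1 count. It ran from 413 to 1578 when 1 library was left out, and was 1168 with the sham libraries alone and 0 with the FPI libraries alone (981 at an unadjusted p under 0.05 by edgeR). In alternatives added after seeing the data it was 1017 without TMM, 1907 without FPI libraries 1 and 5, and 9538 (9512 higher, 26 lower) when the libraries were scaled to the astrocyte lists, which moves the median of all genes to 0.94. Under that scaling the medians of the diencephalic, telencephalic and cholesterol lists turned to 0.27, 0.25 and 0.26, and with the FPI libraries alone that of the oligodendrocyte list turned to -0.10. The 7 injury calls became 54 by DESeq2, 84 for every gene with a count, 4 with that minimum of 10 counts, 3 to 16 with 1 library left out, 12 scaled to the astrocyte lists, 4 without FPI libraries 1 and 5 and 1 with no term for the set. A block by replicate number gave 17 injury calls, 6 of them among the 7 (all but Mpeg1), in place of the set term and 17 in place of no term; by that pairing the deviations of sham and FPI libraries of 1 number correlated across genes at 0.397, -0.00502, 0.195, 0.388 and 0.303 for replicates 1 to 5, and the best partner was the own number for 4 of 5. The interaction gave 358 calls for every gene with a count. The microglia comparison gave 13 calls by DESeq2, 11 for every gene with a count and 0 to 4 with 1 library left out. After the injury means were taken out, 3 list scores (ependymal, mural, immediate early) passed in place of 0. The cause was not tested for any of these. Of the other results, 941 values stayed within their spread or on their side of the threshold, 35 moved, 39 lost and 18 gained a call. Depth limits genes near 0, such as Neu4 with 1 count over the 5 sham libraries.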
